A study of Mus musculus with 6 samples.

Results

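The mitochondrial ribosome was examined through the 78 mouse genes whose protein-coding symbol starts with Mrpl or Mrps followed by digits, out of 53465 genes in the table. Of these, 49 are named Mrpl and 29 Mrps, every such gene of the GENCODE M21 annotation (GRCm38) was in the table, and 5 pseudogenes with such names were left out. The rule for membership uses names and no measured value. The 6 RNA-seq libraries came from the 4T1 line of mouse mammary carcinoma. Cells resistant to axitinib, an inhibitor of VEGF receptor kinases, had been recovered from post-surgical lesions of mice dosed with 100 mg/kg/day and were grown with 0.5 µM of the drug. They were stained with C12FDG, a β-galactosidase substrate that becomes fluorescent when cut, and sorted into a high fraction (SM positive, 3 libraries) and a low fraction (SM negative, 3 libraries). Senescence-associated β-galactosidase activity is a common marker of senescent cells. Both fractions therefore share the resistance and the drug, the design holds no untreated or sensitive cells, and the labels do not say whether the replicates of a fraction are separate cultures or sorts.

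Mitochondrial ribosomes translate the few mRNAs of the mitochondrial genome, which encode core subunits of the respiratory chain and of ATP synthase. Their ribosomal RNAs come from mitochondrial DNA, but all of their proteins are encoded in the nucleus, made in the cytosol and imported. Some of these proteins descend from bacterial ribosomal proteins and others are found only in mitochondria. Names beginning with Mrpl were given to proteins of the large subunit and names beginning with Mrps to those of the small subunit. A few names do not match the place of the protein: the products of Mrps18a and Mrps30 sit in the large subunit, and that of Mrps36 has been reassigned to the α-ketoglutarate dehydrogenase complex. Promoters of these genes often carry sites for NRF1, GABP and YY1, factors that serve many nuclear genes for mitochondrial proteins.

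Promoter stretches of 4 members are shown as examples of the sequences searched for motifs below: Mrps27 had the greatest difference between the fractions and the ETS or GABP motif, Mrpl10 carries the NRF1 motif, and Mrpl12 and Mrpl57 were lower in SM positive cells in the paired fit with none of the searched motifs in the stretch. The sequences are from RefSeq (GRCm38.p6), lie upstream of the RefSeq start, read 5′ to 3′ on the gene's strand, and have the motif in capitals.
Mrps27, chr13:99344706-99344785, plus strand, ETS or GABP motif on the reverse strand: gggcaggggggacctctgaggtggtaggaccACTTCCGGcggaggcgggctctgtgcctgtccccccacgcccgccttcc
Mrpl10, chr11:97041410-97041559, plus strand, NRF1 motif on the reverse strand: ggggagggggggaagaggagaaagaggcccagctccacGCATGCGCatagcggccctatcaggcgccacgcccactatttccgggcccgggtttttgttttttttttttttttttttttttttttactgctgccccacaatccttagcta
Mrpl12, chr11:120484463-120484612, plus strand, no searched motif: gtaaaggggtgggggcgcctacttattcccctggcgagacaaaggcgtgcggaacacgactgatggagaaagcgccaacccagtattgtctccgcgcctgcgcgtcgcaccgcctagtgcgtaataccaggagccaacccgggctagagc
Mrpl57, chr14:57826186-57826233, plus strand, no searched motif: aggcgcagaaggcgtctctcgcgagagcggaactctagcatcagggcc

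The libraries held 18733801 to 26533528 counts, and each member had between 192 and 3938 counts in each library, so all 78 passed the filter on low counts that left 14038 genes. Levels are given as CPM (a count relative to the library total), scaled between libraries by the trimmed mean of M values. The cells carried markers of a mammary carcinoma line: the keratins Krt8 and Krt18 averaged 977 and 1020 CPM and the adhesion molecule Epcam 143 CPM. Of the other listed epithelial markers, Cdh1 and Cldn4 averaged 734 and 280 CPM, but Krt19 and Cldn7 only 1.315 and 1.445 CPM. Of the markers of other cell types, the T-cell gene Cd3e, the macrophage gene Adgre1 and the fibroblast genes Col3a1 and Lum had no count in any library, which allows up to 0.113 to 0.16 CPM (3 counts). The pan-leukocyte gene Ptprc was at or below 0.047 CPM and the endothelial genes Pecam1 and Cdh5 at or below 0.379 and 0.119 CPM. Not all such markers were absent. Highest in the leukocyte list were Cd68 and Csf1r, averaging 5.82 CPM (91 to 169 counts per library) and 0.331 CPM. In the fibroblast and pericyte list they were Pdgfra and Col1a1, averaging 4.31 CPM (66 to 125 counts per library) and 0.656 CPM. Mitochondrial transcripts took 1.54% to 1.90% of the counts of a library.

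Transcripts of the mitochondrial ribosome were slightly less abundant in the β-galactosidase-high fraction. Of the 78 members, 68 (87.2%) had a negative log2 change, SM positive over SM negative, against 50.2% of all genes tested. The median was -0.074 over the members and -0.0009 over all 14038 genes, and the members ran from -0.26 for Mrps27 to 0.10 for Mrpl14. Their summed level was 3448, 3281 and 3337 CPM in SM negative replicates 1, 2 and 3 and 3201, 3221 and 3116 CPM in SM positive replicates 1, 2 and 3. All SM positive sums lay below all SM negative sums, and the ratio of the means was 0.948. In a bulk measurement, fewer cells of a type and less RNA per cell cannot be told apart.

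No single member passed the test without a replicate block, in either direction. The quasi-likelihood test of edgeR, with Benjamini-Hochberg adjustment over all 14038 genes and a threshold of 0.05, called 0 members lower, against a background of 0.214% of all genes, and 0 higher, against 1.14%. DESeq2 and limma-voom also called 0 members. At an unadjusted p under 0.05 the edgeR test took 10 members as lower (12.8%, against 5.58% of all genes) and 0 as higher (8.04% of all genes). The lowest adjusted p of a member was 0.158, for Mrps27. In size, 48 members had an absolute log2 change under 0.1 and 75 under 0.2. The median standard error was 0.073, against 0.0945 over all genes. The absolute change was above its own standard error in 42 members and above 2 standard errors in 15. Shares of all genes at these cuts of size and standard error are not given here, so these counts only describe the members.

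Libraries with the same replicate number deviated together across genes, and a fit with that number as a block called 10 members lower and 0 higher. The background in that fit was 5.6% of all genes lower and 8.52% higher, so the share of members called lower was 12.8%. The 10 were Mrps27, Mrpl52, Mrpl57, Mrps18b, Mrpl12, Mrpl40, Mrps18a, Mrpl37, Mrps9 and Mrpl33. With 1 pair left out, which leaves 2 libraries per fraction, none of the 10 passed without replicate number 1 and Mrps18b alone did without number 3, while without number 2 there were 12 calls, 7 of them among these 10. Calls over all genes went from 1982 to 705, 886 and 1793 in these fits, where 1.42%, 1.75% and 5.36% of all genes were called lower. The members' median log2 change was -0.063 without number 1, -0.073 without number 3 and -0.088 without number 2. Mrps27 kept a log2 change of -0.28 to -0.25 and Mrps18b one of -0.20 to -0.19 in all 3 fits. DESeq2 with the same block called 0 members, and 1.37% of all genes lower.

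**Figure D1:**
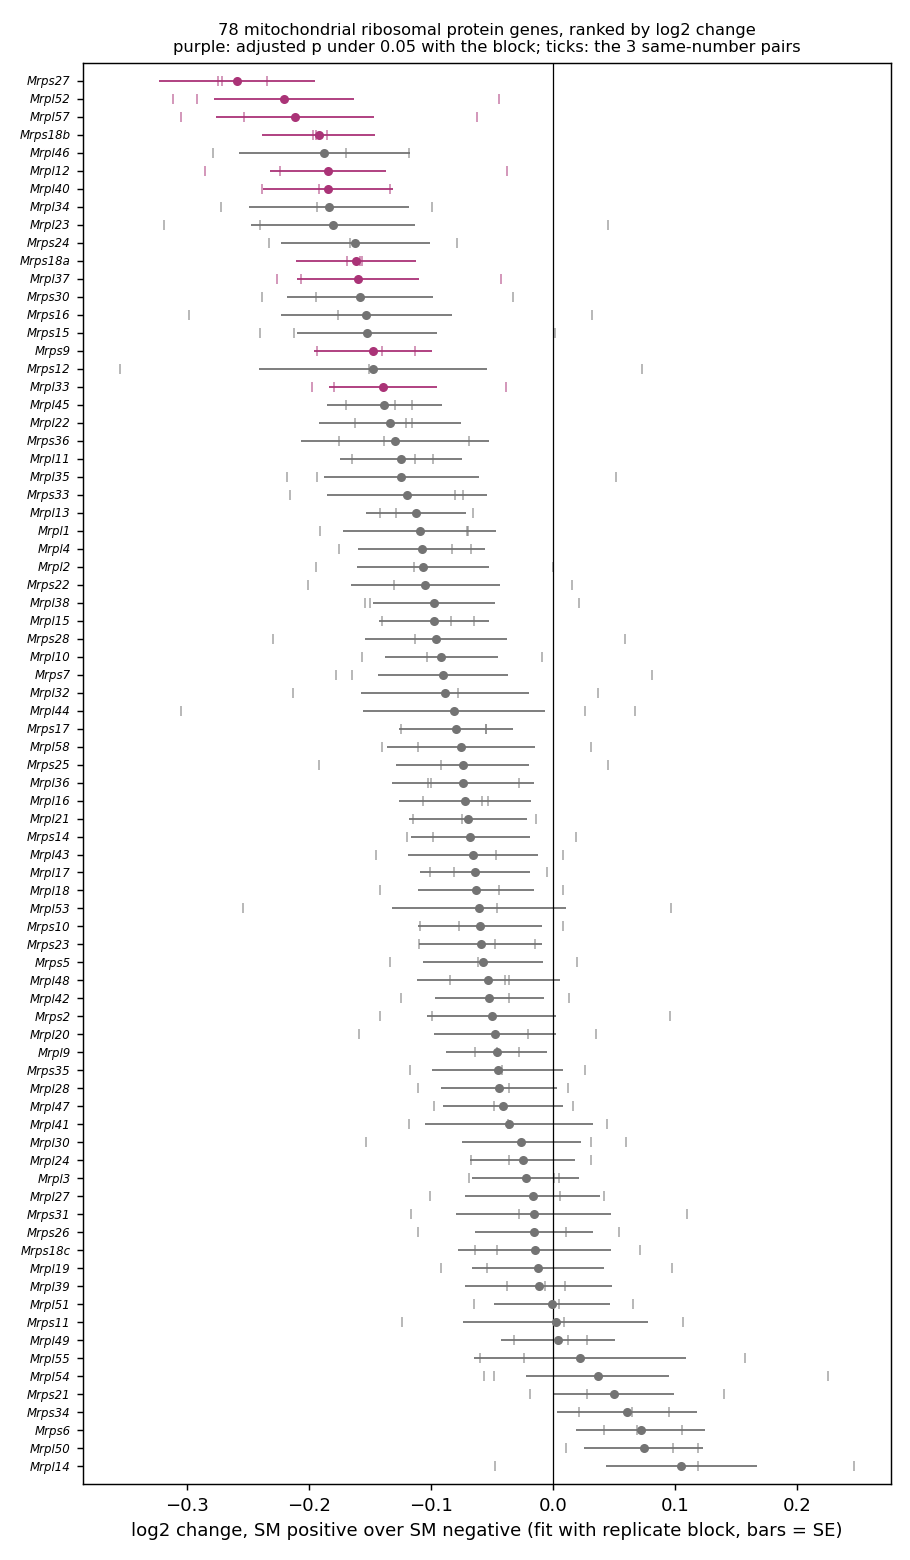
Log2 change of each of the 78 members, SM positive over SM negative, from the edgeR fit with the replicate block; points are estimates, bars their standard errors, and ticks the log2 CPM ratios of the 3 same-number pairs. The 10 members past an adjusted p of 0.05 are in purple and all lie on the negative side, and 69 of the 78 estimates are negative.

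Among proteins of the small subunit, 3 of 26 members (11.5%, against 5.6% of all genes) fell in the fit with the block, and the median log2 change of the 26 was -0.071. With a trend by transcript length also removed, 2 fell (7.69%, against 6.58% of all genes). Mrps27 (chr13:99344786-99415562, plus strand, GRCm38) encodes an RNA-binding protein with pentatricopeptide repeats. It measured 23.4, 24.5 and 23.4 CPM in SM negative replicates 1, 2 and 3, and 19.9, 20.3 and 19.4 CPM in the SM positive ones. The fractions did not overlap, each pair differed by a similar amount, and the gene was 16.5% lower in SM positive cells (log2 change -0.26, SE 0.075). The edgeR adjusted p was 0.158 without the block and 0.00938 with it.

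Mrps18b (chr17:35910379-35916389, minus strand) encodes one of the paralogues of bacterial S18 and was at 55.04, 57.7 and 54.2 CPM in SM negative and 48.1, 50.4 and 47.7 CPM in SM positive replicates. The pair ratios were nearly equal, at -0.19, -0.20 and -0.19 on the log2 scale, and the fractions did not overlap. The edgeR adjusted p was 0.192 without the block and 0.00825 with it (log2 change -0.19, SE 0.060). Mrps9 (chr1:42851233-42905683, plus strand), a homologue of bacterial S9, was named after its values were seen. It had 51.0, 50.4 and 52.1 CPM in SM negative and 47.2, 44.04 and 47.3 CPM in SM positive replicates. All SM positive values were the lower ones, with a log2 change of -0.15 (SE 0.061) and an edgeR adjusted p of 0.315 without and 0.0447 with the block.

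Within the large subunit, 7 of 51 members (13.7%, against 5.6% of all genes) fell in the fit with the block, with a median log2 change of -0.073 over the 51. With the length trend also removed, 6 fell (11.8%, against 6.58% of all genes). Mrpl12 (chr11:120484613-120489065, plus strand) encodes the stalk protein that recruits translation factors and that also binds the mitochondrial RNA polymerase. Its level was 117, 102 and 107 CPM in SM negative and 96.4, 99.05 and 91.9 CPM in SM positive replicates. The fractions did not overlap, but the difference was small in the second pair (log2 -0.038, against -0.29 and -0.22 in the other pairs). The log2 change was -0.18 (SE 0.065), and the edgeR adjusted p was 0.242 without the block and 0.0134 with it. Mrpl10, which anchors Mrpl12 to the ribosome, differed less: it was at 63.5, 61.4 and 59.1 against 57.0, 61.0 and 55.01 CPM (log2 change -0.089, edgeR adjusted p 0.212 with the block), and its fractions overlapped. Mrpl11, at the base of the stalk, measured 45.5, 42.8 and 43.0 against 42.1, 40.0 and 38.3 CPM. Those fractions did not overlap, and its edgeR adjusted p was 0.106 with the block.

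Of the other calls, 4 belong to proteins with no bacterial counterpart. Mrpl52 (chr14:54426909-54429756, plus strand) was at 47.0, 38.1 and 41.4 CPM in SM negative and 38.4, 37.0 and 33.3 CPM in SM positive replicates. Here SM positive replicate 1 lay above SM negative replicate 2, so the fractions overlapped although each pair pointed down (log2 change -0.22, SE 0.090). The edgeR adjusted p was 0.310 without the block and 0.0134 with it. Mrpl57 (chr14:57826234-57829296, plus strand) had 27.9, 24.5 and 27.1 against 22.5, 23.5 and 22.7 CPM, with no overlap, a log2 change of -0.21 (SE 0.079) and an edgeR adjusted p of 0.0329 with the block. Mrpl40 (chr16:18872018-18876862, minus strand) measured 40.9, 38.7 and 35.0 against 37.3, 33.9 and 29.6 CPM. Its fractions overlapped while each pair fell, and the edgeR adjusted p was 0.439 without the block and 0.0236 with it. Mrpl37 (chr4:107055874-107066868, minus strand) was at 53.7, 52.6 and 57.8 against 46.5, 51.0 and 49.4 CPM without overlap, with an edgeR adjusted p of 0.0365 in the fit with the block.

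Mrpl33 (chr5:31596935-31664384, plus strand) encodes a small protein of bacterial descent and was the most abundant member per kilobase of transcript. It read 95.2, 86.6 and 87.2 CPM in SM negative and 84.0, 84.3 and 76.1 CPM in SM positive replicates. The fractions were separate by a narrow margin, and the log2 change was -0.14 (SE 0.065, edgeR adjusted p 0.380 without and 0.0393 with the block). Mrps18a (chr17:46110986-46128910, plus strand), whose product sits in the large subunit, was at 46.6, 45.0 and 46.8 against 41.8, 40.3 and 41.6 CPM. All SM positive values were lower, by a log2 change of -0.16 (SE 0.061), with an edgeR adjusted p of 0.269 without and 0.0325 with the block.

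The S18 paralogues thus had unlike values. Mrps18a and Mrps18b fell in the fit with the block, whereas Mrps18c, which occupies the S18 site of the small subunit, was at 24.2, 23.5 and 24.2 CPM in SM negative and 23.2, 24.7 and 23.5 CPM in SM positive replicates (log2 change -0.013, SE 0.074, edgeR adjusted p 0.912 with the block). The difference between the paralogues was not tested. Of the Mrps18c transcript, 32.8% of the 31-base stretches are shared with Gm43511, a gene model that overlaps it on the same strand, and 16.7% of those of Mrps18b are shared with Gm13552, so their counts are less certain than those of Mrps18a (0.163%).

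**Figure D2:**
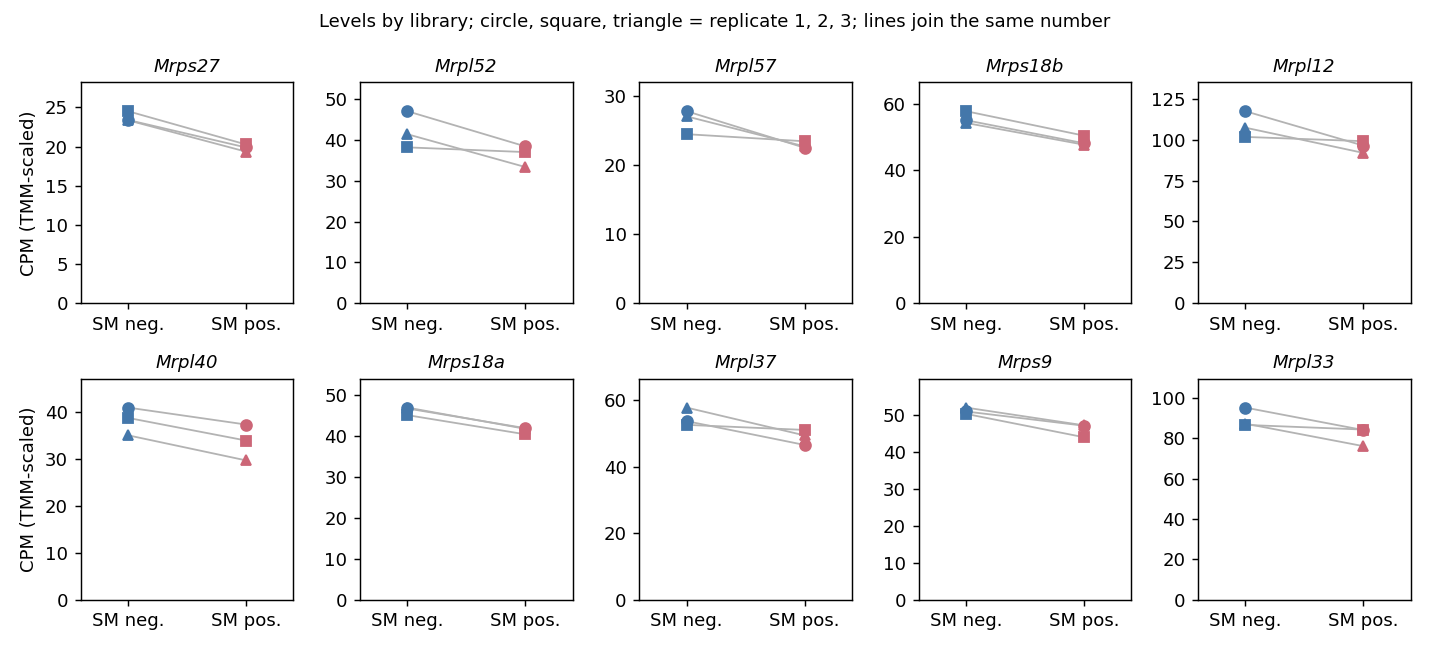
CPM of the 10 members past the threshold in the fit with the replicate block, by fraction (horizontal axis) and replicate number (marker shape), with lines joining libraries of the same number; the vertical axes start at 0. Every line slopes down from SM negative to SM positive, while the fractions overlap for Mrpl52 and Mrpl40.

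Several members with known tasks did not pass in either fit. Mrpl45, which holds the ribosome at the inner membrane near the exit of the nascent chain, was at 50.5, 53.8 and 51.7 against 46.1, 47.9 and 47.7 CPM. Its fractions did not overlap (log2 change -0.14, SE 0.060), and the edgeR adjusted p was 0.0573 with the block. Mrps30, a large-subunit protein despite its name, measured 29.1, 29.4 and 32.7 against 24.7, 28.7 and 28.6 CPM, also without overlap, with an edgeR adjusted p of 0.0840 with the block. Mrps12, a protein of the decoding centre, was low and variable at 12.5, 10.3 and 12.7 against 11.3, 10.8 and 9.93 CPM. Mrps5 read 48.7, 51.2 and 52.6 against 46.7, 46.7 and 53.3 CPM, so that the highest library of all was an SM positive one. Mrpl58, a peptidyl-tRNA hydrolase that rescues stalled ribosomes, was at 27.4, 26.3 and 29.1 against 25.4, 26.9 and 26.4 CPM, with overlap. Mrpl44, which resembles RNase III, differed in SM negative replicate 1 (25.03 CPM) from the other 5 libraries (20.3 to 22.5 CPM). The edgeR adjusted p with the block was 0.334 for Mrps12, 0.501 for Mrps5, 0.463 for Mrpl58 and 0.535 for Mrpl44.

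None of the few members with a positive log2 change passed in either fit. Mrpl14, a homologue of bacterial L14 at the interface of the subunits, was at 28.6, 26.0 and 29.4 CPM in SM negative and 31.1, 30.9 and 28.5 CPM in SM positive replicates. Its fractions overlapped, and the log2 change of 0.10 (SE 0.078) had an edgeR adjusted p of 0.624 without and 0.294 with the block. Mrpl50, Mrps6 and Mrps34 were higher in SM positive cells in each pair, with log2 changes of 0.077, 0.072 and 0.061 and edgeR adjusted p values of 0.357, 0.416 and 0.550 with the block. Mrps34 shares 35.6% of its 31-base stretches with Nme3, a gene overlapping it on the same strand. Mrps21, Mrpl54, Mrpl55 and Mrpl49 had log2 changes of 0.052, 0.040, 0.023 and 0.006, each smaller than its standard error of 0.104, 0.083, 0.094 and 0.085.

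Fractions did not overlap for 19 members (24.4%), all lower in SM positive cells, against 9.47% of all genes that were lower without overlap. No member was higher without overlap, against 10.4% of all genes. All pairs were negative for 33 members (42.3%, against 22.6% of all genes) and all positive for 3 (3.85%, against 23.8%). The pairs were unequal. The members' median log2 ratio was -0.113 in pair 1, -0.023 in pair 2 and -0.109 in pair 3, while the medians over all genes were -0.0014, 0.0051 and -0.0012. In pairs 1 and 3, 65 of 78 members were negative (50.2% and 50.1% of all genes), and in pair 2, 43 were (48.5% of all genes).

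When each member's log CPM was scaled to mean 0 and unit spread over the 6 libraries and then averaged over members, SM negative replicates 1, 2 and 3 stood at 0.77, 0.010 and 0.46 and SM positive replicates 1, 2 and 3 at -0.37, -0.21 and -0.66. SM negative replicate 2 thus stood closest to the SM positive libraries, with SM positive replicate 2 nearest to it. The median correlation between 2 members over these libraries was 0.338, and all members share the libraries and their depth. The genes outside the family that followed this average most closely were Gm2000 (Pearson r = 0.998), Polr2f, a subunit of nuclear RNA polymerases (0.997), and Ak6, a nuclear adenylate kinase (0.995). These are descriptions over 6 libraries of the genes ranked highest among all with at least 5 CPM.

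**Figure D3:**
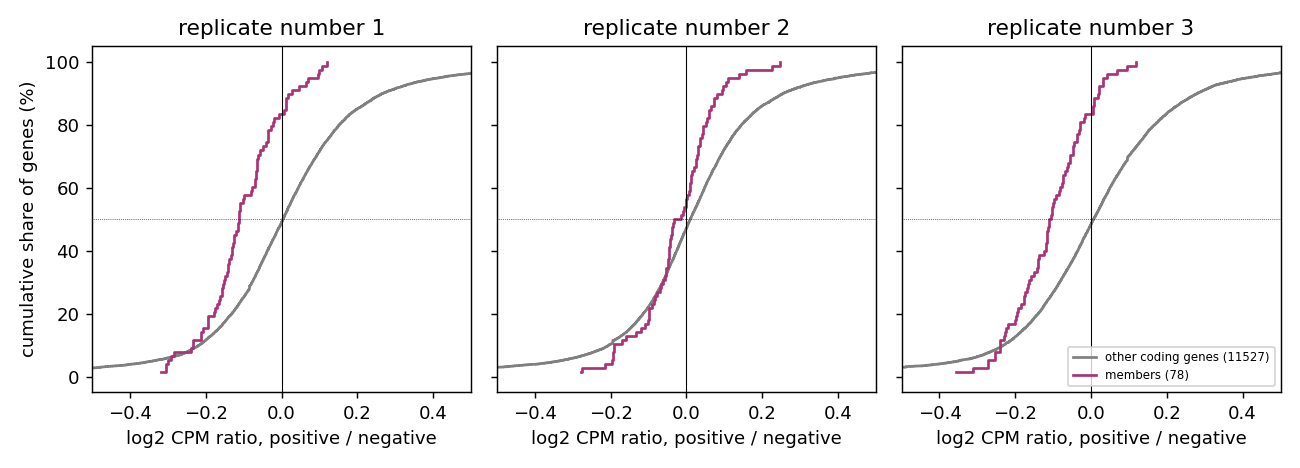
Cumulative share (%) of genes against the log2 CPM ratio of SM positive to SM negative within each same-number pair, for the 78 members and the 11527 other protein-coding genes tested; the horizontal axis is limited to -0.5 to 0.5. The curve of the members lies to the left in pairs 1 and 3, with medians of -0.113 and -0.109, and nearer to the other genes in pair 2, with a median of -0.023.

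Members listed with a bacterial homologue and the remaining proteins of the ribosome had similar medians. The 46 listed members had a median log2 change of -0.073. Of these, 3 were called lower in the fit with the block (6.52%, against 5.6% of all genes). The other 31 had a median of -0.075 and 7 calls (22.6%). With the length trend of each library also removed, the calls were 1 (2.17%) and 7 (22.6%), against 6.58% of all genes. Mrps18a and Mrps18b were counted among the 31, since Mrps18c takes the place of bacterial S18. Both are S18 paralogues and were among the 7 calls of the first fit, so these shares depend on that choice. Neither difference was tested. Summed levels were lower in SM positive cells to a like degree for the large subunit (ratio of means 0.946), the small subunit (0.952) and Mrps-named members as a whole (0.947). The sums of the large-subunit members were 2445, 2308 and 2351 CPM against 2260, 2271 and 2190 CPM, and those of the small-subunit members 987, 957 and 972 against 926, 935 and 914 CPM. In both subunits every SM positive library lay below every SM negative one.

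Per kilobase of annotated transcript, the members' median was 30.2 CPM, above the 9.78 CPM of all genes tested. The highest per kilobase were Mrpl33 (179 CPM per kilobase), Mrpl13 (118) and Mrps21 (107), and the lowest Mrps25 (6.70), Mrpl1 (6.91) and Mrpl32 (6.96). Most of the proteins stand in the ribosome in equal numbers, apart from the stalk protein Mrpl12, which is present in several copies and measured 77.7 CPM per kilobase. The lowest members have long annotated transcripts, 6073 bases for Mrps25, 3431 for Mrpl1 and 3013 for Mrpl32, against 478 for Mrpl33. Level per kilobase and log2 change were almost unrelated over the 78 members (Pearson r = 0.045, Spearman rho = 0.014).

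Transcript length was set beside these differences because short genes as a whole were lower in SM positive cells. Over 14025 genes with a length, the log2 change correlated with length with Spearman rho = 0.211 (Pearson r = 0.136), and within pairs the rho was 0.210, 0.032 and 0.231. These are correlations across genes, which share the same libraries and are not independent replicates. Members were short, with a median length of 1225 bases against 2429 for all genes tested. Over the 78 members, however, the log2 change was unrelated to length (r = 0.009, rho = 0.036).

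The members were therefore compared with other protein-coding genes of the same length. Between 440.5 and 939.7 bases, 26 members had a median log2 change of -0.068 and 738 other genes one of -0.061, which is nearly the same value. Between 939.7 and 1706 bases the medians were -0.083 for 26 members and -0.033 for 1996 others. From 1706 to 6073 bases they were -0.071 for 26 members and 0.018 for 7810 others. Negative values were found in 20, 24 and 24 of the 26 members of these classes, against 69.2%, 60.1% and 44.1% of the other genes. In the fit with the block, 3, 5 and 2 members of these classes were called lower. These shares were 11.5%, 19.2% and 7.69%, against 13.6%, 8.72% and 4.4% of the other genes. Short members were thus called no more often than other genes of their length. When the length trend of each library was removed, the members' median was -0.064 with 61 of 78 negative, against -0.0065 for all genes, and edgeR called 0 members without the block. With the block and the length correction together, 8 members were called lower and 0 higher, against a background of 6.58% of all genes lower and 7.9% higher. Of these, 6 were among the 10 above. Mrpl40, Mrps18a, Mrps9 and Mrpl33 were no longer called, with edgeR adjusted p values of 0.0651, 0.133, 0.0879 and 0.203, while Mrps30 (0.0353) and Mrpl45 (0.0388) were called in addition.

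**Figure D4:**
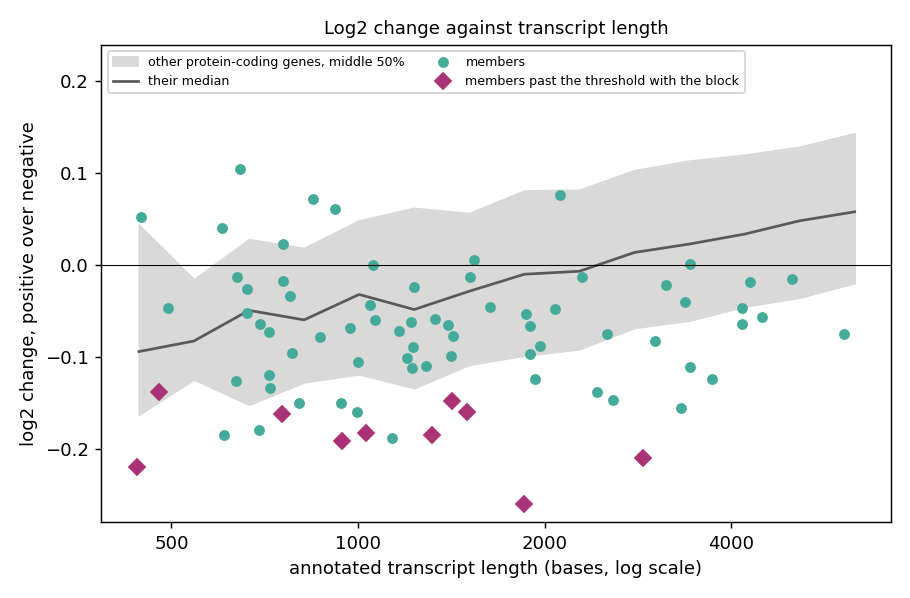
Log2 change, SM positive over SM negative, against annotated transcript length (bases, log axis) for the 78 members (points; diamonds for the 10 called in the fit with the block), with the median (line) and middle 50% (band) of other protein-coding genes. The line rises with length, whereas the members stay near -0.07 in the short, middle and long classes, which puts the long members below the line.

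The gene models set limits on single values. Exons of 28 members overlap a gene on the opposite strand and those of 8 a gene on the same strand, and 45 overlap none. Because it is not known here whether counting used the strand, antisense partners may not be separated. For 18 members at least 10% of the 31-base stretches of the transcripts occur in another gene, up to 84.4% for Mrpl53 with Gm42688. The 30 members with no exon overlap and under 5% of shared stretches had a median log2 change of -0.098. In the fit with the block, 6 of them were called lower (20%, against 5.6% of all genes). With the length correction as well, 3 were (10%, against 6.58% of all genes).

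Many of these genes are transcribed from a start close to that of a neighbour on the other strand. For 23 members a protein-coding gene starts within 1000 bases in the opposite direction, and 22 of these neighbours passed the filter. The neighbour's log2 change had the same sign as the member's in 16 of the 22 pairs (Pearson r = 0.375, Spearman rho = 0.359 across pairs, which share the same libraries). Of the 23 members 18 were negative, and of the 22 neighbours 15, so many equal signs arise from these shares alone. Whether the genes of a pair are linked was not tested. Mrps27 and Ptcd2, which encodes a mitochondrial pentatricopeptide protein, start 81 bases apart, across the stretch printed above. Ptcd2 was 24.8 CPM on average in SM negative and 21.3 CPM in SM positive libraries (log2 change -0.22, edgeR adjusted p 0.266 without and 0.0243 with the block). Gga3, 126 bases from Mrps7, also fell in the fit with the block (log2 change -0.18, edgeR adjusted p 0.0296). These 2 calls were 9.09% of the 22 neighbours, against 5.6% of all genes. The other 20 neighbours did not pass, among them the neighbours of other called members, Ska3 beside Mrpl57 (log2 change -0.079), Ppp1r10 beside Mrps18b (-0.083), Hira beside Mrpl40 (0.027) and Cyb5rl beside Mrpl37 (-0.037).

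RefSeq promoter windows, from 250 bases before to 50 after the start, were found for 69 members. The windows were searched on both strands for GCGCATGC (NRF1), CCGGAAGT (ETS or GABP), AAGATGGC (YY1) and CACGTG (E-box), of which none contains another. The YY1 letters were in 12 members (17.4%), against 5.08% of the 9104 windows of tested coding genes and 3.29% of all 16504 coding windows. The ETS or GABP letters were in 11 (15.9%, against 9.11% and 5.52%), the NRF1 letters in 8 (11.6%, against 5.83% and 3.76%) and the E-box letters in 5 (7.25%, against 10.5% and 8.11%). The median GC content of the windows was 58.3% in members and 61.3% in tested coding genes. Members with the YY1 letters had a median log2 change of -0.106 and the rest -0.067, a difference that was not tested. For the NRF1 letters these medians were -0.086 and -0.072, for ETS or GABP -0.063 and -0.075, and for the E-box -0.073 and -0.074. A match is a run of letters and not evidence of binding.

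Other genes of mitochondrial gene expression were read from the same fits, where none had a call without the block. The background of lower calls with the block was again 5.6% of all genes. Of 5 mitoribosomal proteins outside the naming rule, 2 fell with the block. Chchd1, a small-subunit protein, was at 45.7, 45.1 and 41.5 CPM in SM negative and 39.1, 37.8 and 32.9 CPM in SM positive replicates, with no overlap (log2 change -0.27, edgeR adjusted p 0.00119 with the block). Gadd45gip1, a large-subunit protein, was at 36.8, 36.6 and 35.4 against 33.1, 29.6 and 31.9 CPM (edgeR adjusted p 0.0190 with the block). The remaining 3, Dap3, Ptcd3 and Aurkaip1, did not pass and had log2 changes of -0.045, -0.069 and -0.021.

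Shares called lower with the block in the other lists were 7.41% of 27 assembly and rRNA-modification factors, 6.25% of 16 translation factors, 0 of 17 mitochondrial aminoacyl-tRNA synthetases and 5.26% of 19 transcription and RNA-processing genes. No gene of these lists rose. The assembly factors called were Eral1, a GTPase that binds the small-subunit rRNA (log2 change -0.25, edgeR adjusted p 0.00951), and Ngrn (-0.20, 0.0362). Among the translation factors the call was Tufm, the elongation factor that delivers aminoacyl-tRNA, from 67.1, 65.4 and 59.9 to 60.7, 56.7 and 52.1 CPM (edgeR adjusted p 0.00951 with the block). Among the transcription and RNA-processing genes it was Ssbp1, the single-stranded DNA-binding protein of mitochondrial DNA (log2 change -0.15, edgeR adjusted p 0.0473), while Tfam, which packages that DNA, had a log2 change of 0.016. The medians of these lists were -0.064, -0.056, -0.074 and -0.065, each within 0.02 of the members' -0.074.

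Factors that regulate the family's genes did not move together. Of 9 tested, Gabpa, the DNA-binding subunit of GABP, rose in the fit with the block, from 61.6, 64.0 and 61.8 to 67.8, 67.9 and 70.1 CPM (log2 change 0.13, edgeR adjusted p 0.310 without and 0.0469 with the block). Myc, a transcription factor that promotes ribosome production, fell in the same fit, from 254, 291 and 304 to 239, 247 and 268 CPM (log2 change -0.17, edgeR adjusted p 0.00886 with the block). Its fractions overlapped. Nrf1 was at 48.1, 50.5 and 48.2 against 47.8, 49.9 and 48.9 CPM, and Yy1 had a log2 change of 0.045, neither past the threshold.

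Among the products that the ribosome serves, the 13 mRNAs of the mitochondrial genome had no call and a median log2 change of 0.093, but their pair medians were -0.036, -0.186 and 0.320, so the sign differed between pairs. The 78 nuclear subunits of oxidative phosphorylation that were tested had 4 calls lower (5.13%, below the 5.6% of all genes) and 0 higher with the block and a median of -0.060. Their transcripts are short, with a median length of 746 bases. With the length trend removed their median was -0.019, and the fit with the block called 1 lower and 1 higher. The 81 cytosolic ribosomal proteins tested, with a median length of 757 bases, had 44 lower (54.3%) and 0 higher with the block. Their median was -0.135. After the length correction 24 were lower with the block (29.6%, against 6.58% of all genes). The length-corrected median was -0.091, against -0.064 for the members. The cytosolic list's pair medians of -0.191, -0.029 and -0.166 were weakest in pair 2, the pair in which the members' median was also nearest to 0.

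**Figure D5:**
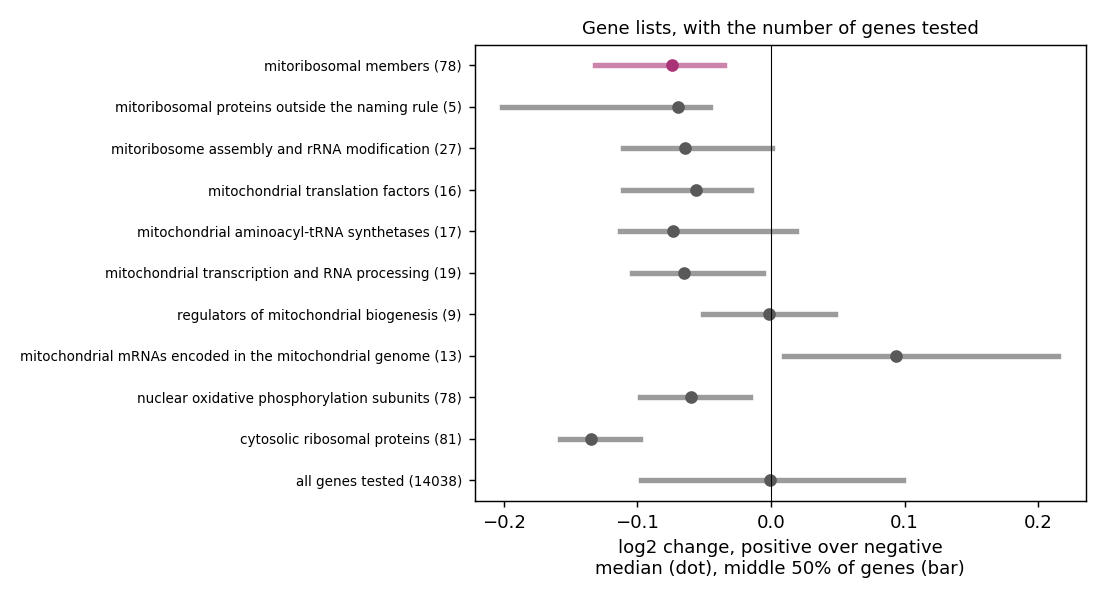
Median log2 change (dot) and middle 50% of genes (bar), SM positive over SM negative, for the 78 members, 9 other gene lists and all 14038 genes tested, with the number tested in parentheses. Values are not corrected for transcript length. The members' median of -0.074 lies beside those of the assembly, translation and synthetase lists, that of the cytosolic ribosomal proteins is lower at -0.135, and that of the mitochondrial mRNAs is above 0.

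Some cell-type markers also differed between the fractions in the fit with the block. No marker passed without the block, and their part in the results above was not tested. Of the 7 epithelial markers, Epcam, Cldn4 and Krt19 fell in the fit with the block (edgeR adjusted p 0.0147, 0.00727 and 0.0263), and the list's pair medians were -0.183, -0.036 and -0.189. Krt19 had only 19 to 47 counts per library. Krt8 and Krt18 had log2 changes of -0.086 and -0.10 and did not pass. Cdh1 was at 731, 680 and 752 CPM in SM negative and 736, 728 and 780 CPM in SM positive replicates, higher in each pair (log2 change 0.053, edgeR adjusted p 0.424 with the block), and Cldn7 had a log2 change of 0.053 (SE 0.22). The summed level of the 7 epithelial markers was 3104 to 3324 CPM in SM negative and 2981 to 3168 CPM in SM positive libraries, which overlap. The leukocyte list summed to 6.57 to 8.81 CPM in SM negative and 4.90 to 6.43 CPM in SM positive libraries. Of its 8 genes 1 was tested, Cd68, a lysosomal protein, which was lower (edgeR adjusted p 0.233 without and 0.0148 with the block). The fibroblast and pericyte list summed to 4.36 to 4.98 and 5.84 to 8.11 CPM. Of its 7 genes 3 were tested, and Pdgfra rose from 3.55 to 5.07 CPM on average (edgeR adjusted p 0.246 without and 0.0423 with the block). With the block and the length correction its edgeR adjusted p was 0.062, while Epcam, Cldn4, Krt19 and Cd68 still passed. None of the 4 endothelial markers passed the filter.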

How the data were processed

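Polyadenylated RNA of 6 sorted 4T1 libraries (3 per fraction) was sequenced from stranded mRNA libraries, per the labels' protocols. The values that the authors deposited are expected counts per gene. Per the submitters' processing notes, FastQC 0.11.5, STAR 2.6.0a and RSEM 1.3.1 were used with GRCm38, with no role or order stated. The annotation release, like the strand setting, was not given in the sources used here. Of 53465 identifiers, 99.8% matched GENCODE M21 (GRCm38), which gave symbols, 1-based coordinates and lengths (the median over a gene's basic protein-coding transcripts).

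Expected counts were rounded, filtered with filterByExpr, scaled by TMM and tested with edgeR 4.0.16 (R 4.3.3; robust quasi-likelihood F test, Benjamini-Hochberg over all 14038 genes, threshold 0.05). A standard error is the absolute log2 change divided by the square root of F. The replicate numbers were taken to pair the libraries because deviations from the fraction means correlated at 0.22, 0.28 and 0.196 between same-number libraries (minimum set at 0.1). Between others the values were -0.175 to -0.043. Deviations from a fraction mean cancel out within each gene, so positive same-number values force the others to be negative on balance. The negative values are therefore no added evidence of pairing. The labels do not say what the numbers mark, so a p-value reflects only how these libraries vary, which may be technical variation. No 2 libraries agreed within sampling noise (chi-square per gene 6.37 to 18.17). Limits from counts of 0 cover counting error only. The scripts were tested on simulated data with planted changes larger than that of any member. That test does not show how often changes of the members' size would be found.

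Length and GC trends were removed with a per-library lowess offset (span 0.3). Other alternatives were DESeq2 1.42.0, limma-voom (limma 3.58.1), other scalings and filters, and leaving out libraries or pairs. Several combinations with the block were chosen after seeing the data. The members and gene lists were chosen with earlier results of these data known. Named were the 8 members with the smallest p in the block fit per direction, the extremes of log2 change and of level per kilobase (the 3 highest and the 3 lowest), 13 members of known role whatever their values, up to 2 genes per direction and list past the threshold, 2 markers per other cell type, members with a sequence feature, and the 3 genes most like the members' average. Other genes were named after their values were seen. Promoter sequences came from RefSeq (GRCm38.p6).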

Additional observations from a re-analysis of the deposited data

How the results depend on the processing

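The direction of the median held: the members' median log2 change lay between -0.0904 and -0.0631 in every setting run, and no setting called a member higher. The distance to all genes varied more. With no filter the median over all genes was -0.0222, and the members' median differed from it by -0.0413. In the first fit, without the block, that difference was -0.073. The number called lower was 0 without a block under other scalings, filters, DESeq2, limma-voom, the length correction and each library left out. In these settings 0.028% to 0.653% of all genes were called lower. With the replicate block it was 10, with the length trend also removed 8, with the GC trend removed 13 and with RLE size factors 10. Also with the block, it was 9 with library totals, 6 with limma-voom, 11 with a 1 CPM filter (above it in at least 3 libraries) and 0 with DESeq2. In that order, 5.6%, 6.58%, 6.77%, 5.65%, 5.52%, 4.12%, 6.86% and 1.37% of all genes were called lower. With a library or pair left out it ranged from 0 to 12: with the block it was 0 without number 1, 12 without number 2 (adding Mrpl23, Mrps30, Mrps16, Mrps15 and Mrps7) and 1 without number 3. Without number 1, 2 or 3, the shares of all genes called lower were 1.42%, 5.36% and 1.75%.

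Over all genes, 190 calls became 663 with no filter, 334 with DESeq2 and 1982 with the replicate block. With the block they were 2032 after the length correction, 2159 after the GC correction, 1975 with RLE factors, 1961 with library totals, 1586 with limma-voom, 616 with DESeq2 and 2066 with the 1 CPM filter. Leaving out 1 library gave 25 to 123, and leaving out number 1, 2 or 3 with the block 705, 1793 or 886. Lower calls were 15.8% of all calls without the block and 39.7% with it.

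Single members changed sign more often: of all 78, 9 did so with the length trend removed, the greatest value before being -0.052 (Mrpl42), and 0 to 9 in any other setting. Among the 31 members followed by name, 3 did. Mrps18c was 0.0435 with the length trend removed, 0.042 with the replicate block added to that, 0.0035 without SM positive replicate 1, and 0.0097 and 0.0003 with the block and without number 1 or 3. Mrps18c ranged from -0.0407 to 0.0097 and Mrps21 from -0.0264 to 0.1469 over the left-out libraries. Mrps21 changed sign without replicate 3 of SM negative (-0.0147) or replicate 1 of SM positive (-0.0264), and Mrpl44 was 0.044 with the block and without number 1. The cause was not tested. Where 1 pair was left out with the block, 2 libraries per fraction remained.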

Other observations

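Differences of the members in the same-number pairs, which share no library, were weakly related to each other. Across the 78 members Pearson's r was 0.274 between pairs 1 and 2, 0.382 between pairs 1 and 3 and 0.244 between pairs 2 and 3, against 0.283, 0.331 and 0.306 across all genes with a ratio in both pairs. Members with more exons had slightly lower log2 changes (r = -0.204, rho = -0.170), while over all genes the sign was the other way (r = 0.093, rho = 0.096). For GC content the values were r = -0.049 over members and -0.054 over all genes. These correlations are across genes that share the same libraries, and no test was made of them.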
